A study of Mus musculus with 6 samples.

Results

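The genes described here are 9 adaptor genes of mouse chromosome X: the small Bex1, Bex2 and Bex4 and Tceal1, Tceal3, Tceal5 and Tceal8, and the larger Maged1 and Maged2. A gene was measured where an array row named it and no other gene, which held for 8 of the 9, out of 19938 genes measured on the arrays. Tceal3 had no such row. The set was chosen by the lower values of Bex1, Tceal5 and Maged1 on the deleted arrays of this series and filled up with their relatives, so the genotype differences of all members are given as a description and support nothing by themselves.

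The deleted group held 3 samples of Cebpafl/fl;Mx1Cre mice and the control group 3 samples of Cebpafl/fl mice without the transgene. All mice were female, carried the floxed Cebpa alleles and received pIpC, a synthetic double-stranded RNA that induces the interferon-responsive Mx1 promoter driving Cre. LSKCD150- cells, which are early blood-forming progenitors depleted of long-term stem cells, were sorted from bone marrow at day 18, and each sample was hybridised to an array, lettered a, b and c within its genotype. The labels give neither the age of the mice nor whether the triplicates came from separate mice, so p-values measure only the spread between these samples, which may be technical. Since controls lacked Cre, carrying the transgene and losing Cebpa cannot be told apart.

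Bex proteins ("brain expressed, X-linked") are short, poorly structured adaptors that are abundant in neurons and are also found in some blood-forming cells. Tceal proteins resemble them and are named for a stretch related to the transcription elongation factor TFIIS. Maged1 and Maged2 carry the MAGE homology domain, a protein-binding fold that they share with necdin. Bex1 and Maged1 (also called NRAGE) bind the p75 neurotrophin receptor, and human BEX2 binds the blood transcription factor LMO2.

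Cebpa, the targeted gene, averaged 6.09 ± 0.27 on deleted arrays and 7.80 ± 0.06 on control arrays (SD, n = 3 each, RMA values on the log2 scale). Its log2 fold change, deleted minus control as for all folds below, was -1.71 ± 0.14 (SE), with an adjusted p of 8.8e-04 in limma and an exact two-sided permutation p of 0.10, the smallest that 3 against 3 allows. Where its probes lie relative to the floxed sequence was not analysed here. Array medians over all rows lay between 6.16 and 6.20 on deleted arrays and between 6.22 and 6.23 on control arrays. Of the sorted population's markers, Kit, Cd34, Flt3, Cd48 and Ptprc read above the median of all values, 6.20, while Slamf1, which encodes the CD150 antigen that the sort excluded, read between 3.94 and 4.86 on deleted arrays and between 3.48 and 3.93 on control arrays.

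All 8 measured members had a negative log2 fold change, as did 43.5% of all genes. Their median was -0.58, beside 0.03 for all genes. In limma's fit across all genes, Bex1, Tceal5 and Maged1 were called lower at an adjusted p under 0.05 and no member was called higher. The share of all genes called was 1.43% in either direction and 0.732% lower, and because this contrast chose the members, nothing is read from their count of 3. None of the 3 calls passed when all 35556 deposited rows were tested or with an ordinary pooled-variance test, where the call of Cebpa was lost too (limma adjusted p = 0.0513 over all rows). For Bex1, Bex4, Tceal5 and Maged1 every deleted array lay below every control. That arrangement held for 8.68% of all genes.

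**Figure D1:**
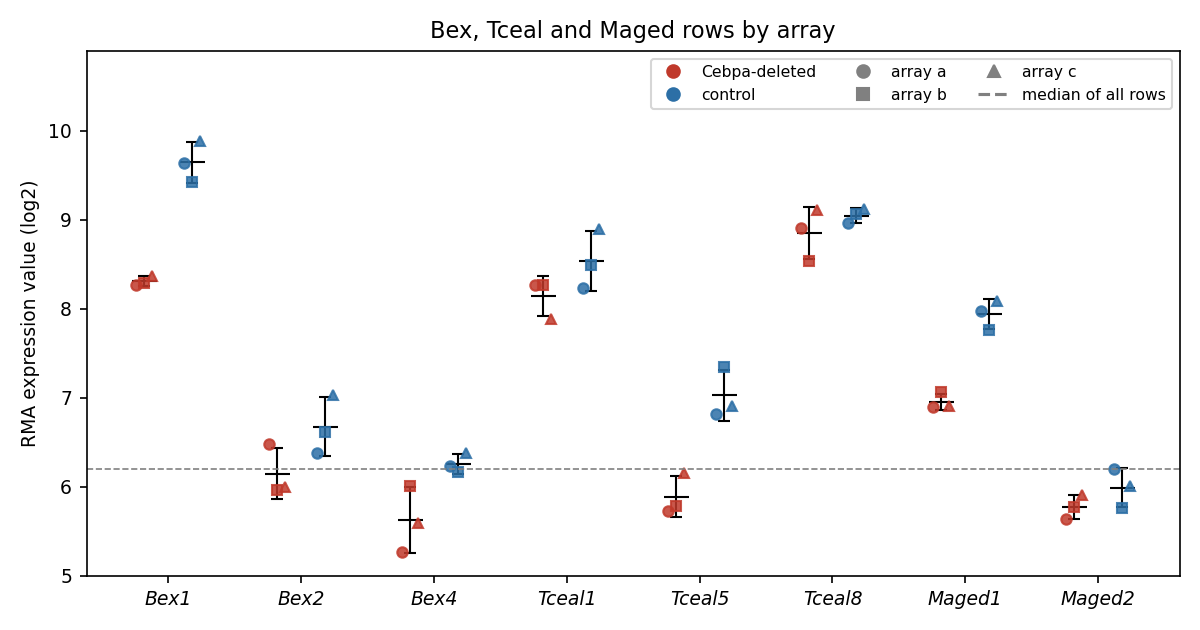
Log2 RMA values of the 8 measured members, with a point for each array, deleted (red) left of control (blue); the black bars are the mean and SD of 3 arrays and the dashed line is the median of all rows. Bex1, Tceal5 and Maged1 show a clear gap between genotypes, whereas Bex2, Tceal1, Tceal8 and Maged2 overlap.

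Bex1 had the largest difference of the members. Its values were 8.27, 8.29 and 8.37 on deleted arrays a, b and c, against 9.64, 9.42 and 9.88 on control arrays a, b and c. The deleted arrays lay close together (SD 0.05), control arrays were more spread (SD 0.23), and the lowest control stood 1.05 above the highest deleted array. The log2 fold change was -1.34 ± 0.13 (SE), a 2.53-fold lower value. When any single array was left out, it stayed between -1.45 and -1.22.

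A second row that names both Bex4 and Bex1, left out by the selection rule, read 6.16, 6.12 and 6.35 on deleted arrays a, b and c, against 6.99, 6.73 and 7.25 on control arrays a, b and c. Its log2 fold change was -0.78 ± 0.15 (SE, from a fit over all 35556 rows), and the genotypes did not overlap there either. How much of its signal comes from each gene was not tested.

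Bex4, a close copy of Bex1, read 5.27, 6.01 and 5.59 on deleted arrays a, b and c, against 6.23, 6.16 and 6.38 on control arrays a, b and c. The deleted arrays were all lower, but the gap to the nearest control was only 0.15, set by deleted array b. The log2 fold change was -0.64 ± 0.17 (SE). The identity of this row is uncertain: of the 10 rows nearest to it by probe number, 8 belong to genes of chromosome 1 and only 1 to a gene of chromosome X, whereas for Bex1, Bex2 and the measured Tceal and Maged members all 10 lie on X.

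Bex2, whose human counterpart binds LMO2, read 6.48, 5.96 and 6.0 on deleted arrays a, b and c, against 6.38, 6.61 and 7.03 on control arrays a, b and c. Deleted array a stood above control array a, so the genotypes overlapped. The log2 fold change of -0.53 ± 0.19 (SE, 95% interval -0.95 to -0.11) was not called, and it was -0.35 without control c. Older symbols cross within the family, since RefSeq lists Bex1 as a synonym of Bex2 and Bex4 as a synonym of Bex1. Rows were picked by the annotation's symbol, and the gene IDs beside the member symbols carry the same names in RefSeq.

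Tceal5 read 5.73, 5.78 and 6.15 on deleted arrays a, b and c, against 6.82, 7.35 and 6.91 on control arrays a, b and c. Every deleted value lay below 6.20, the median of all rows, and every control value above it, with a gap of 0.67 between the nearest arrays. The log2 fold change was -1.14 ± 0.16 (SE), a 2.2-fold lower value. Of the calls of the 3 genes, this was the only one that depended on single arrays: it was lost without control b (log2 fold change -0.98), deleted a (-1.06) or deleted b (-1.09), leaving 2 members called.

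Tceal3 was represented only in a row shared by Tceal3, Tceal5 and Tceal6. That row read 5.47, 5.23 and 5.09 on deleted arrays a, b and c, against 5.79, 5.60 and 5.72 on control arrays a, b and c. The genotypes did not overlap (log2 fold change -0.44 ± 0.12 SE, from the fit over all rows), and the level of Tceal3 itself cannot be read from it. The separate row of Tceal6, singled out after its values were seen, was at 4.82 to 4.93 on deleted arrays and 4.79 to 4.91 on control arrays, with a log2 fold change of 0.04 that turned to -0.01 after cyclic loess. All these values lay below 6.20, the median of all rows, so a flat reading there says little about Tceal6.

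Tceal1 and Tceal8 overlapped between genotypes. Tceal1 read 8.27, 8.27 and 7.88 on deleted arrays a, b and c, against 8.23, 8.49 and 8.90 on control arrays a, b and c. Its log2 fold change was -0.40 ± 0.18 (SE, 95% interval -0.80 to 0.00), and it was -0.22 without control c, the highest control. Tceal8 read 8.91, 8.54 and 9.11 on deleted arrays a, b and c, against 8.96, 9.06 and 9.12 on control arrays a, b and c, a log2 fold change of -0.19 ± 0.15 (SE, 95% interval -0.52 to 0.13). Deleted array b alone stood clearly lower in Tceal8, and without it the log2 fold change was -0.04.

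Maged1, an adaptor of the p75 receptor that also binds necdin, read 6.90, 7.06 and 6.91 on deleted arrays a, b and c, against 7.97, 7.76 and 8.09 on control arrays a, b and c. All deleted arrays were at least 0.70 below the lowest control. The log2 fold change was -0.99 ± 0.12 (SE), a 1.98-fold lower value, and stayed between -1.08 and -0.91 when single arrays were left out.

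Maged2, the paralog of Maged1 known in humans for its part in kidney salt transport, read 5.64, 5.77 and 5.91 on deleted arrays a, b and c, against 6.20, 5.76 and 6.01 on control arrays a, b and c. The groups overlapped, no value exceeded the median of all rows, and the log2 fold change was -0.22 ± 0.13 (SE, 95% interval -0.52 to 0.08). It lay between -0.33, without control b, and -0.11, without control a.

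Within a genotype the members varied largely apart from each other from array to array. Over the 28 pairs of members the median Pearson correlation was 0.62 over the 6 arrays, but 0.17 once each array was taken as its deviation from its genotype's mean, with 16 of 28 pairs above 0. These are descriptions over 6 arrays that share normalization. Bex1 and Maged1 had the highest correlation of deviations, 0.82, and Tceal5 and Maged1 the lowest, -0.70. Control c was the highest of the 3 controls in 6 of 8 members, with Tceal5 and Maged2 as the exceptions, while it was the highest control in 36.2% of all genes.

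Patterns were compared among genes at or above the median intensity. Clone and accession names, predicted genes, short RNAs and olfactory or vomeronasal receptor genes were left out of this search. The patterns most like that of Bex1 over the 6 arrays were those of Ube3b, Maged1 and Brd8 (Pearson's r = 0.994, 0.992 and 0.988). For Tceal5 they were Msi2, Def8 and St8sia4 (0.996, 0.995 and 0.994), and for Maged1 they were Bex1, Tmem150b and Slc23a2 (0.992, 0.990 and 0.989). Between 49 and 73 of 9460 genes exceeded r = 0.95 with each, and the genotype difference contributes to every such r. The sizes of the differences varied among these genes: the log2 fold change of Ube3b was -0.31 ± 0.10 (SE, limma adjusted p = 0.159), against -1.21 ± 0.11 (SE, limma adjusted p = 0.00197) for Tmem150b.

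The Bex and Tceal genes sit side by side on chromosome X. In RefSeq's gene order the run from Bex2 to Tceal1 holds 14 protein-coding genes, of which 11 were measured and 6 were members. The log2 fold changes of the other 5 were 0.12 for Nxf3, 0.14 for Tceal9, -0.02 for Bex3, 0.36 for Kir3dl2 and 0.02 for Kir3dl1. None of these 5 was called in limma, and 1 had an unadjusted p under 0.05, as did 15.9% of all genes. Over the whole of chromosome X without the members, 7 of 731 genes were called lower (0.958%) and 9 higher (1.23%), with a median log2 fold change of 0.06.

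**Figure D2:**
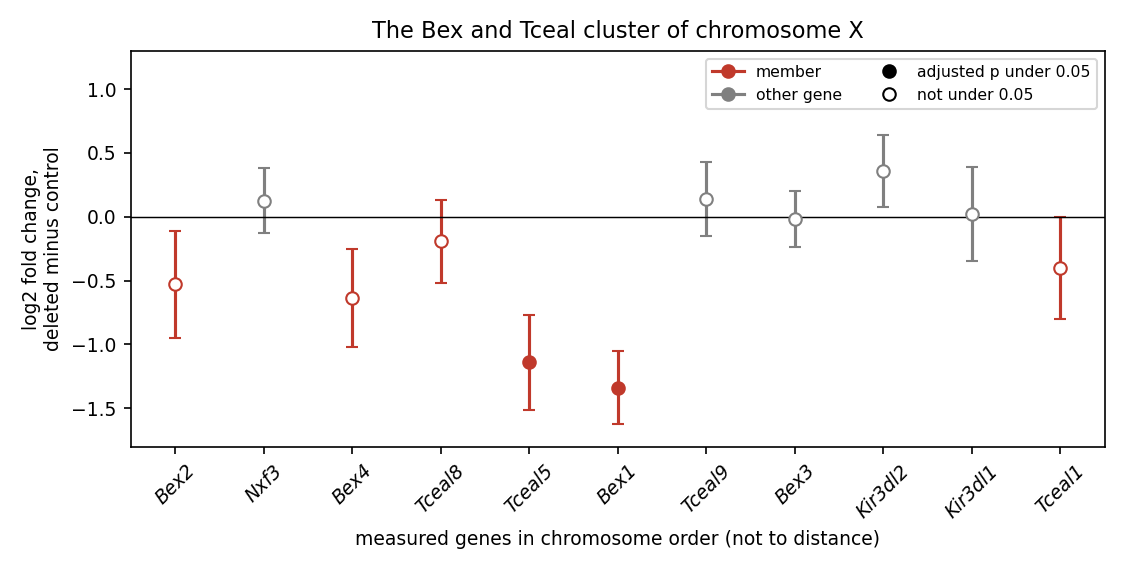
Log2 fold change (deleted minus control, with 95% intervals of the limma fit) of the 11 measured genes from Bex2 to Tceal1, in chromosome order but not to distance; members are red, other genes grey, and filled points passed an adjusted p of 0.05. Tceal5 and Bex1, adjacent in this order, are the only filled points, and Tceal9 and Bex3 beside them lie near 0.

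Bex3, also named Ngfrap1 or NADE and a p75 partner that can promote cell death, was singled out after its values were seen. It read 11.88 to 12.01 on deleted arrays, against 11.91 to 12.03 on control arrays. The genotypes were nearly superimposed, with a log2 fold change of -0.02 ± 0.10 (SE, 95% interval -0.24 to 0.20) that turned slightly positive under other scalings. Its neighbour Tceal9, singled out likewise, averaged 10.87 ± 0.16 on deleted arrays and 10.73 ± 0.17 on control arrays (SD, n = 3 each).

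Bex6, a family member on chromosome 16 rather than X, went the other way. It read 9.29, 9.07 and 9.23 on deleted arrays a, b and c, against 8.27, 8.04 and 8.34 on control arrays a, b and c. All deleted arrays were above all controls, and Bex6 rose by 0.98 ± 0.12 on the log2 scale (SE, limma adjusted p = 0.00702), 1.97-fold. The call held when any single array was left out, with adjusted p-values between 0.0177 and 0.0351 and log2 fold changes between 0.89 and 1.04, but not over all deposited rows (limma adjusted p = 0.0777) or with the ordinary pooled-variance test (adjusted p = 0.192).

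Of 15 relatives of the Bex and Tceal genes, which include the Armcx and Gprasp genes of the same stretch of X, 12 were measured. Tceal7, Gprasp1 and Gprasp2 were not. Bex6 alone rose and none fell, where 0.702% of all genes were called higher, and at an unadjusted p under 0.05 there were 1 lower and 4 higher, beside 6.77% lower and 9.10% higher among all genes. The median log2 fold change of the 12 was 0.18. Among them, the Armcx3 and Armcx5 rows have probe numbers far from those of the other Armcx rows, and their identity was not checked. A dimmer row of Armcx3, next to that of Armcx1 by probe number, was passed over by the choice of the brightest row. Armcx1, a mitochondrial outer membrane protein that acts in axonal transport of mitochondria, had a log2 fold change of -0.41 ± 0.10 (SE, limma adjusted p = 0.0811). Armcx4 was at 0.52 ± 0.18 (SE, limma adjusted p = 0.193) and Bhlhb9 at 0.32 ± 0.10 (SE, limma adjusted p = 0.173), both chosen after their values were seen. Without deleted array c, Armcx4 was at 0.32.

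Ndn and Mageh1, other genes with the MAGE homology domain, had lower means on deleted arrays without passing the test. Of 9 such genes and SMC5/6 subunits, the partners of MAGE proteins in DNA repair, all were measured and none was called in limma, with 3 lower and 2 higher at an unadjusted p under 0.05 (beside 6.77% and 9.10% of all genes) and a median of -0.01. Ndn, which encodes necdin, a growth suppressor studied in neurons and blood stem cells, read 5.74, 5.43 and 5.86 on deleted arrays a, b and c, against 6.35, 6.56 and 7.39 on control arrays a, b and c. The genotypes did not overlap, but control c stood far above the other controls, and the log2 fold change of -1.09 ± 0.24 (SE) had a limma adjusted p of 0.0635.

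Mageh1 read 5.95, 6.67 and 6.93 on deleted arrays a, b and c, against 7.38, 7.23 and 8.08 on control arrays a, b and c. Its log2 fold change was -1.05 ± 0.27 (SE, limma adjusted p = 0.103), again with control c the highest. Magee1 was at -0.40 ± 0.17 (SE, limma adjusted p = 0.281) and Nsmce3, the MAGE subunit of the SMC5/6 complex, at 0.28 ± 0.10 (SE, limma adjusted p = 0.193), both chosen after their values were seen. Without control c, Magee1 was at -0.19.

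**Figure D3:**
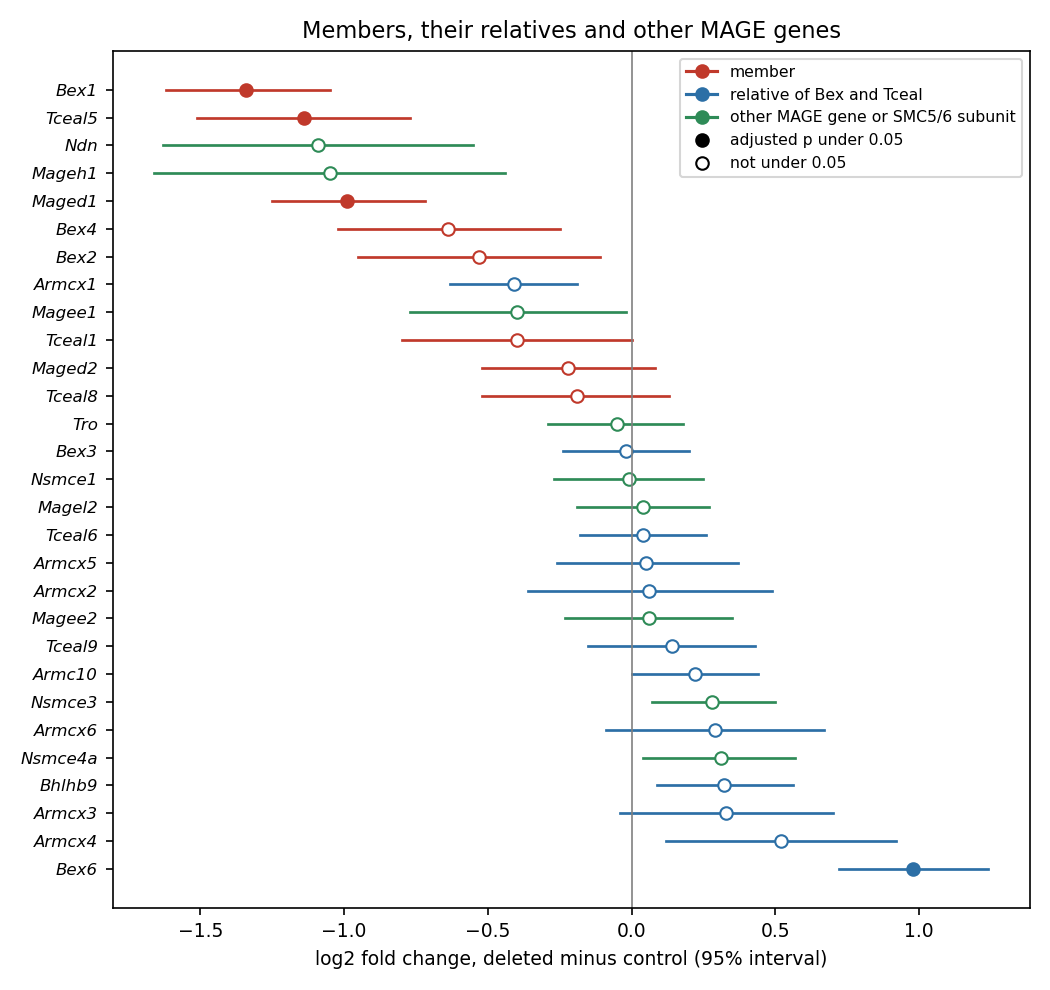
Log2 fold change (deleted minus control) with 95% intervals for the 8 measured members (red), 12 relatives of Bex and Tceal (blue) and 9 other MAGE genes or SMC5/6 subunits (green), sorted by value; filled points passed an adjusted p of 0.05. Bex1, Tceal5 and Maged1 are the filled points on the left, and Bex6 is the filled point on the right.

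The known partners of these adaptors held no called gene. Of 24 genes of the p75 neurotrophin pathway 20 were measured, and none was called in limma, with 1 at an unadjusted p under 0.05 (beside 15.9% of all genes) and a median of 0.01. Ngfr, the p75 receptor itself, singled out after its values were seen, had a log2 fold change of -0.05 ± 0.10 (SE), which turned to 0.03 after quantile normalization. The smallest p-values belonged to Unc5a, a netrin receptor that binds Maged1, at -0.46 ± 0.13 (SE, limma adjusted p = 0.135), and Bmpr1a, at -0.20 ± 0.12 (SE, limma adjusted p = 0.467). The Bmpr1a values, 3.53 to 3.59 on deleted arrays and 3.55 to 3.90 on control arrays, lay among the dim rows, and without control b its log2 fold change was -0.12.

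All 11 genes of the LMO2 complex were measured, and none was called in limma, with 2 lower and 2 higher at an unadjusted p under 0.05 (beside 6.77% and 9.10% of all genes) and a median of 0.07. Lmo2 read 9.97, 9.86 and 9.60 on deleted arrays a, b and c, against 10.31, 10.60 and 10.16 on control arrays a, b and c, with no overlap. Its log2 fold change was -0.54 ± 0.15 (SE, limma adjusted p = 0.106). Lmo4 was at 0.43 ± 0.15 (SE, limma adjusted p = 0.212), and Ldb1, the scaffold that joins LMO2 to its DNA-binding partners, was at -0.32 ± 0.13 (SE, limma adjusted p = 0.283), chosen after its value was seen.

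Of 16 transcription elongation genes 15 were measured, and none was called in limma, with 2 lower and 2 higher at an unadjusted p under 0.05 (beside 6.77% and 9.10% of all genes) and a median of -0.02. Tcea2, a TFIIS gene of restricted expression, was at -0.54 ± 0.15 (SE, limma adjusted p = 0.121). Tcea1, the widely expressed TFIIS gene, was at 0.29 ± 0.11 (SE, limma adjusted p = 0.217), from a row whose 10 nearest rows by probe number all lie off chromosome 1, the gene's own chromosome. With the mean of all rows of each gene, Tcea1 was at 0.19 (limma adjusted p = 0.400).

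Markers of several cell types also differed between genotypes. Of 5 measured LSK markers Kit and Flt3 fell and Cd48 rose, with summed intensities of 12.65 to 12.76 on deleted arrays and 12.71 to 12.85 on control arrays (log2). Of 6 measured long-term stem cell markers, Procr, Mecom and Hlf fell. Not called were Fgd5 (log2 fold change -0.13), Ctnnal1 (0.01) and Slamf1 (0.53), whose deleted arrays all lay above the controls. The summed intensity of the list was 9.21 to 9.47 on deleted arrays and 10.34 to 10.44 on control arrays. Of 6 neutrophil markers S100a8, S100a9 and Camp fell, with sums of 7.92 to 8.07 on deleted arrays and 10.01 to 10.35 on control arrays. Ltf (-0.19), Ngp (-0.61) and Mmp8 (0.23) were not called and averaged below the median of all rows. Of 5 mast cell and basophil markers Cpa3 alone was called, with a log2 fold change of 3.47. Mcpt8 (0.09), Gata2 (0.13), Fcer1a (-0.07) and Ms4a2 (0.53) were not called. The sums of this list were 11.48 to 11.78 on deleted arrays and 9.21 to 9.24 on control arrays. All sums add linear intensities, so the brightest marker weighs most, here Cpa3 on the deleted arrays. Of 4 monocyte markers Cd68 fell (log2 fold change -0.90). Csf1r (0.17), Adgre1 (0.02) and Ccr2 (0.43) were not called and averaged below the median of all rows. None of the erythroid, megakaryocyte, B cell, T cell or NK cell markers was called, those of B, T and NK cells all averaging below the median of all rows. Of 7 stromal and endothelial markers Emcn fell (-0.97) and Pdgfrb rose (0.99). Not called were Cxcl12 (0.01), Lepr (0.02), Cdh5 (0.10), Kdr (0.06) and Col1a1 (-0.04), all but Col1a1 averaging below the median of all rows. None of 6 neural and neuroendocrine markers was called, with sums of 8.44 to 8.56 on deleted arrays and 8.32 to 8.47 on control arrays, and 5 of them (Tubb3, Stmn2, Snap25, Uchl1 and Nefl) averaged below the median of all rows. The part of these cells in the member values was not tested, and in bulk samples fewer cells of a type and less RNA per cell cannot be told apart.

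Promoter windows of RefSeq (GRCm38.p6), from 250 bases before to 50 bases after the start of transcription, were available for all 9 members. The windows of Bex1, Tceal5 and Maged1, the members called lower, are shown here 5′ to 3′ on the strand of the gene. Capitals mark the letters TGACG, the core of the cyclic AMP response element, and CACGTGA, an E-box with 1 more base, on either strand.
Bex1, chrX:136215464-136215763, minus strand: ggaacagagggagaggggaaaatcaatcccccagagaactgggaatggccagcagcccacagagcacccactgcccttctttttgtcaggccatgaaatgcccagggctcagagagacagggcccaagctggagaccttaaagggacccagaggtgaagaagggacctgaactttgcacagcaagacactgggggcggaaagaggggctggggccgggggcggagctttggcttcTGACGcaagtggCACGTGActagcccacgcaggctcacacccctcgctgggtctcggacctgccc
Tceal5, chrX:136203835-136204134, minus strand: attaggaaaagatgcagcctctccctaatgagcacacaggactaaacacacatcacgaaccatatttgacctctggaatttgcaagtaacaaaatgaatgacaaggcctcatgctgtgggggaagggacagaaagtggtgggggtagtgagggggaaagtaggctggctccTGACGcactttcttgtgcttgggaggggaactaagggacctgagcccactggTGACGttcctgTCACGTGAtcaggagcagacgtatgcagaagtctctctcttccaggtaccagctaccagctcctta
Maged1, chrX:94541976-94542275, minus strand: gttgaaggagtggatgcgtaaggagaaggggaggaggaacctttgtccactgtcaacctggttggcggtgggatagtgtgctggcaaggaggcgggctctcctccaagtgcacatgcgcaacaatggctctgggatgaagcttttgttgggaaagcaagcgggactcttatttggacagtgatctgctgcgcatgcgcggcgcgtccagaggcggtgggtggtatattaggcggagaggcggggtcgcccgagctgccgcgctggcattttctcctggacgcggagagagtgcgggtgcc

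The Bex1 and Tceal5 windows both hold TGACG followed after 7 bases by CACGTGA, close to the start of transcription, and the Maged1 window holds neither. The Maged1 window is rich in CpG, with 20 such dinucleotides against a median of 7 over 27025 promoters. The letters TTGCNNAA, a loose form of the C/EBP binding site searched on both strands, were found in 10.7% of all promoters and in 1 of the 9 members, Bex2. A match is a run of letters and not a measured binding site, and a missing match says nothing about the factor.

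The same pair of letters, on the strand of the gene and at most 40 bases apart, stood in 5 of the 9 member windows and in 5 of 14 relatives. The pair was defined after reading these windows, so these counts are a description. Among the relatives, Armcx5 and Gprasp1 have the same window of 300 bases, without the pair, and it is counted for each. Over all 27025 promoters 38 held it (0.141%), and 28 of those belong to other genes. TGACG alone, on either strand, was in 20.9% of promoters and CACGTGA in 3.83%. All 10 stretches of the family are aligned here on TGACG, with both parts in capitals, to show how alike they are among genes that were and were not called.
Bex1, chrX:136215502-136215536, minus strand: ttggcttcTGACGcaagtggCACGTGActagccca
Bex4, chrX:136138967-136139001, plus strand: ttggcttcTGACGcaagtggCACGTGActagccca
Tceal5, chrX:136203885-136203919, minus strand: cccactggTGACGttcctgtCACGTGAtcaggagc
Tceal8, chrX:136172220-136172254, minus strand: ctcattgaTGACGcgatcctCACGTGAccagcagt
Tceal1, chrX:136707959-136707995, plus strand: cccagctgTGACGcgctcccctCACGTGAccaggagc
Bex3, chrX:136270258-136270294, plus strand: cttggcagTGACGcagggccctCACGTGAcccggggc
Tceal6, chrX:135210687-135210721, minus strand: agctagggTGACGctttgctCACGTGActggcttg
Armcx1, chrX:134717915-134717949, plus strand: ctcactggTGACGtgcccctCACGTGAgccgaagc
Armcx4, chrX:134686494-134686530, plus strand: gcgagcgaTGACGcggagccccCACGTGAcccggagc
Armcx6, chrX:134751431-134751465, minus strand: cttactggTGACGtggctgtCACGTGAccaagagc

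In these stretches the spacing is 7 bases in Bex1, Bex4, Tceal5, Tceal6, Tceal8, Armcx1 and Armcx6, and 9 bases in Tceal1, Bex3 and Armcx4. Genes that carry the pair had log2 fold changes as different as -1.34 for Bex1, -0.02 for Bex3 and 0.52 for Armcx4, none of whose deleted arrays was below a control. Of 34 measured genes with the pair, Bex1 and Tceal5, which served to choose the set, were called lower and none higher, with a median log2 fold change of 0.02. Of the 15614 measured genes with a promoter window 0.775% were called lower, and their median was 0.03. Without the members, none of the remaining 29 was called in limma, 4 were lower and 1 higher at an unadjusted p under 0.05 (beside 6.8% and 9.36% of genes with a window), and the median was 0.08.

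**Figure D4:**
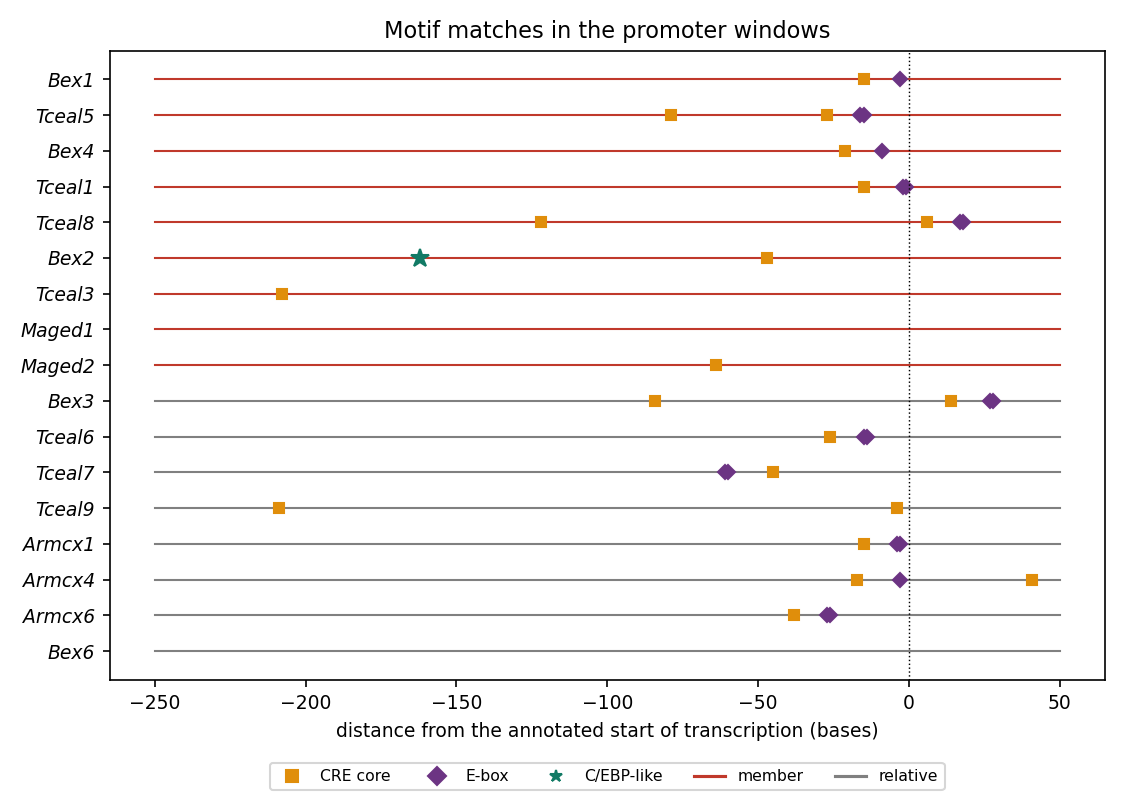
Matches to TGACG (CRE core, orange squares), CACGTGA (E-box, purple diamonds) and TTGCNNAA (C/EBP-like, green star), on either strand, in the windows of the 9 members (red lines) and 8 relatives (grey lines), by distance in bases from the annotated start. The pair near the start recurs in Bex, Tceal and Armcx genes, and the C/EBP-like letters appear in Bex2 alone. The relatives not drawn (Gprasp1, Gprasp2, Bhlhb9, Armcx2, Armcx5 and Armc10) all lack the pair.

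Copies within the family share much longer stretches. The Bex1 and Bex4 windows have 271 identical bases in a row, and 95.1% of their alignment is identical. Bex2 and Bex3 share 162 in a row. The end of the Bex2 window and the matching part of Bex3 are shown, with the same capitals, because the Bex2 window stops where the pair begins in Bex3.
Bex2, chrX:136068187-136068246, minus strand: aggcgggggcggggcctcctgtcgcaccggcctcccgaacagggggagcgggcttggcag
Bex3, chrX:136270206-136270300, plus strand: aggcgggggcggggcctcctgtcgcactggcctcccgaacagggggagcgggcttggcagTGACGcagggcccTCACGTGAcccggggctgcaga

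The lack of a match in Bex2 therefore says only that its window, as annotated, ends before that position. Bex2 had a log2 fold change of -0.53 with overlapping genotypes and Bex3 one of -0.02. The difference between them was not tested.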

How the data were processed

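The deposited values, made by the authors, are RMA log2 intensities of 1-colour Affymetrix Mouse Gene 1.0 ST arrays. The submitters' processing notes name RMA and Affymetrix Expression Console 1.1.2 but no settings or annotation build. RNA input to amplification was 20 ng, per the labels' protocols.

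Values were used as deposited, with no filter on dim rows. Rows were named through the platform's annotation, in which 21789 of 35556 rows name 1 gene. For the 999 genes with several such rows the brightest was kept, giving 19938 genes, of which 19855 matched RefSeq by ID. Replicates are the 3 arrays that the labels give per genotype, and their small number bounds what can be resolved.

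The contrast was fitted in limma 3.58.1 (R 4.3.3, lmFit and eBayes), with two-sided p-values adjusted by Benjamini and Hochberg's method across the 19938 genes, and a threshold of 0.05. Intervals are 95%. The fit was tested on simulated data. Promoters were searched in Python 3.11.15 and aligned with Biopython 1.88, using the most upstream start of each gene. The members and lists were chosen with earlier results of these data known. Named by rule were the members, and from each list the called genes and the 2 with the smallest p. The 3 genes most correlated with each called member, among the genes searched, were named too.

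Alternatives were other priors, intensity filters, normalizations, row choices, a replicate block, array weights, thresholds, leaving out each array and a pooled-variance test without shrinkage. Over all genes, the deviations of same-letter arrays from their genotype's mean correlated at -0.01, -0.04 and 0.06. A correlation over all genes cannot exclude a pairing that affects some of them, so whether the title letters pair the arrays stays undecided.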

Additional observations from a re-analysis of the deposited data

How the results depend on the processing

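All 8 members had a negative log2 fold change in each setting that tested them. Bex1, Tceal5 and Maged1 were the members called in the other priors, intensity filters, normalizations, the mean of all rows, array weights and the replicate block. When every deposited row was tested 0 members were called (5 at an unadjusted p under 0.05, as were 14.1% of rows), and likewise 0 with the ordinary pooled-variance test (4 at an unadjusted p under 0.05, as were 13.0% of genes). Leaving out single arrays gave 2 to 3 members, and a threshold of 0.01 left 2, Bex1 and Maged1. Over all genes 286 changed (1.43%). This became 438 among genes at or above the median intensity, 13 with every deposited row, 0 with the ordinary pooled-variance test (2585 at an unadjusted p under 0.05), 41 at a threshold of 0.01, 676 at 0.1 and 53 to 250 when single arrays were left out. Of the changed genes 49.0% were higher as deposited, 61.6% after quantile normalization and 65.8% after median centring. The cause of these shifts was not tested. With the title letters as a replicate block 274 genes changed, and Ndn (adjusted p = 0.0301) and Mageh1 (adjusted p = 0.0314) passed in limma under the block alone. The log2 fold change of Bex3 changed sign after quantile normalization (0.04), median centring (0.03), cyclic loess (0.03) and when single arrays were left out (-0.05 to 0.02, positive without control a, 0.01, or deleted b, 0.02), that of Ngfr after quantile normalization (0.03) and median centring (0.00), and that of Tceal6 after cyclic loess (-0.01). The Cebpa difference of -1.71 had an exact permutation p of 0.10. Signal over background could not be judged from detection calls here, which limits Bex4, Maged2, Tceal6, the row shared by Tceal3, Tceal5 and Tceal6, and the deleted values of Tceal5.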
